A study of Mus musculus with 24 samples.

Results

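The 10 secondary granule and mature neutrophil genes S100a8, S100a9, Ngp, Ltf, Camp, Lcn2, Retnlg, Chil3, Fcnb and Cd177 were followed in bulk RNA-seq of LSKs, the Lin-Sca-1+c-Kit+ cells of mouse bone marrow that hold the hematopoietic stem and early progenitor cells. They are 10 of 24091 genes in the table of read counts, matched by symbol, and all 10 were among the 13520 genes that passed the filter on low counts. The genes were picked from earlier results of these same libraries, so their differences between groups are given as a description, with no p-value. There were 4 groups. WT mice carried intact miR-142 and no BCR-ABL, and miR-142 KO mice lacked both copies of miR-142. CP CML mice, the chronic phase model, carried BCR-ABL with intact miR-142, and BC CML mice, the blast crisis model, carried BCR-ABL and lacked both copies of miR-142. Each group had 6 mice, 3 females (replicates 1 to 3) and 3 males (replicates 4 to 6), with 1 library per mouse. Per the methods of the study the BCR-ABL mice are of the B6 background, the BC CML mice came from crosses of BCR-ABL mice with miR-142-/- mice, and BCR-ABL is expressed from the SCL promoter after tetracycline withdrawal, with LSKs sorted 2 weeks later. Mouse age is not given in the sources used here.

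Neutrophils fill their granules in order as they mature. Myeloblasts and promyelocytes make the primary (azurophil) granule proteases such as Elane and Prtn3, myelocytes and metamyelocytes make the secondary (specific) granule proteins such as Ltf, Camp, Ngp and Lcn2, and the late cells add Retnlg and large amounts of S100a8 and S100a9. LSKs lie upstream of all of these stages. The transcription factor C/EBP-epsilon (Cebpe) is required for the secondary granule programme, and C/EBP-alpha, Gfi1 and PU.1 (Spi1) act before or beside it.

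Library totals lay between 16267965 (CP CML) and 24687077 (BC CML) counts. The deleted gene followed the labels, since Mir142 had 94 to 127 counts in WT, 68 to 153 in CP CML and 0 in all 12 libraries of miR-142 KO and BC CML mice, where a count of 0 allows up to 3 counts, or at most 0.148 CPM (counts scaled to the library total). The 9 genes of the list named LSK gate summed to 2335 to 4712 CPM and none was at 0 in any group. Only Kit (c-Kit) and Ly6a (Sca-1) among them encode markers of the gate. The others are genes of stem and progenitor subsets, such as Flt3, Slamf1 and Hlf, so the sum is no check on the gate. Ly6g, the defining surface marker of mature mouse neutrophils, had 0 to 4 counts in every library, so this defining marker was near 0 in all 4 groups. In bulk RNA, fewer cells of a type and less RNA per cell cannot be told apart, and this holds for every level below. Limits from a count of 0 cover counting error only.

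On mm10 the genes lie in a few places. S100a8 (chromosome 3, 90669071 to 90670034) and S100a9 (chromosome 3, 90692630 to 90695721) are neighbours 22.6 kb apart on opposite strands. Camp, Ngp and Ltf lie within 1.17 Mb of chromosome 9, Fcnb and Lcn2 lie 4.30 Mb apart on chromosome 2, and Retnlg, Chil3 and Cd177 lie apart from the others on chromosomes 16, 3 and 7. The 250 bases before the RefSeq start of each gene (GRCm38.p6) were searched on both strands for 3 short motifs. The C/EBP motif TTGCNNAA was present before 6 of the 10 genes (S100a9, Ngp, Ltf, Lcn2, Retnlg and Fcnb) and in 9.56% of 32851 promoters of the same length. The STAT motif TTCNNNGAA was present before 1 gene, Chil3, against 7.02% of all promoters, and the PU.1 motif GAGGAAG before 2, S100a8 and Lcn2, against 10.6%. No match of one motif overlapped a match of another in these 10 windows. Because C/EBP factors are known regulators of this granule programme, the windows of the 3 genes with a match nearest the start (Ngp, Ltf and Fcnb) and of Lcn2, whose levels followed a different order from theirs, are printed 5′ to 3′, ending at the base before the start, with C/EBP matches in capitals. A match is a run of letters and not a measured binding site.
Ngp (chr9:110419558-110419807, + strand): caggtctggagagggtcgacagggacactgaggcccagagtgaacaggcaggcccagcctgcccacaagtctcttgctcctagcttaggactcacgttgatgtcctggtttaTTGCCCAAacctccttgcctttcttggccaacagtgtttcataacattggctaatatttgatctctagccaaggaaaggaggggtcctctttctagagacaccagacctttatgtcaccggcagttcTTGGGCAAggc
Ltf (chr9:111019042-111019291, + strand): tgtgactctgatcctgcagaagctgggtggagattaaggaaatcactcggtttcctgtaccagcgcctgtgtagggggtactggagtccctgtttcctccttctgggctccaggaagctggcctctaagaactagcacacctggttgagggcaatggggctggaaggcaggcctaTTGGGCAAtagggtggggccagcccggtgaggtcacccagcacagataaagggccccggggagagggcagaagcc
Fcnb (chr2:28084879-28085128, - strand): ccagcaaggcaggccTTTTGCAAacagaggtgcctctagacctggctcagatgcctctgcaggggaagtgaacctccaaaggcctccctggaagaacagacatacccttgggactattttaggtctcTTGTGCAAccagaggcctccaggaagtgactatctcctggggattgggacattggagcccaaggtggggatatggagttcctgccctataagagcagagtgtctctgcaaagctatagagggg
Lcn2 (chr2:32387740-32387989, - strand): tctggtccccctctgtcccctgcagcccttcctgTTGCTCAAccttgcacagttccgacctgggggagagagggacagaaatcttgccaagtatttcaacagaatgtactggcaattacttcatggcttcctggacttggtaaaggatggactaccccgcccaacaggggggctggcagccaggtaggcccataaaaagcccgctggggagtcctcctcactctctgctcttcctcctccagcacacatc

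The matches stand 138 to 131 and 11 to 4 bases before the start of Ngp, 75 to 68 before Ltf, 235 to 228 and 123 to 116 before Fcnb, and 216 to 209 before Lcn2. Ngp and Lcn2 both carry the motif, and their levels across the 4 groups ran in nearly opposite orders, as described next.

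Levels differed widely between genes and between mice. Per kilobase of transcript (RPKM, comparable between genes), S100a8 was the most abundant of the 10 in WT (mean 15.3 ± 6.72, SD, n = 6) and in miR-142 KO (107 ± 72.2, n = 6), while Lcn2 was the most abundant in CP CML (44.9 ± 20.9, n = 6) and BC CML (73.3 ± 23.7, n = 6). The median share of Lcn2 in the 10 genes' counts was 3.82% for WT mice, 7.57% for miR-142 KO mice, 58.8% for CP CML mice and 68.8% for BC CML mice. The summed level of the 10 genes was 9.14 to 67.0 CPM in WT mice, 36.5 to 222 CPM with miR-142 lost, 43.4 to 89.1 CPM in CP CML and 45.7 to 179 CPM in BC CML. These sums overlapped between groups whose shares of Lcn2 did not (WT and both CML groups).

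**Figure D1:**
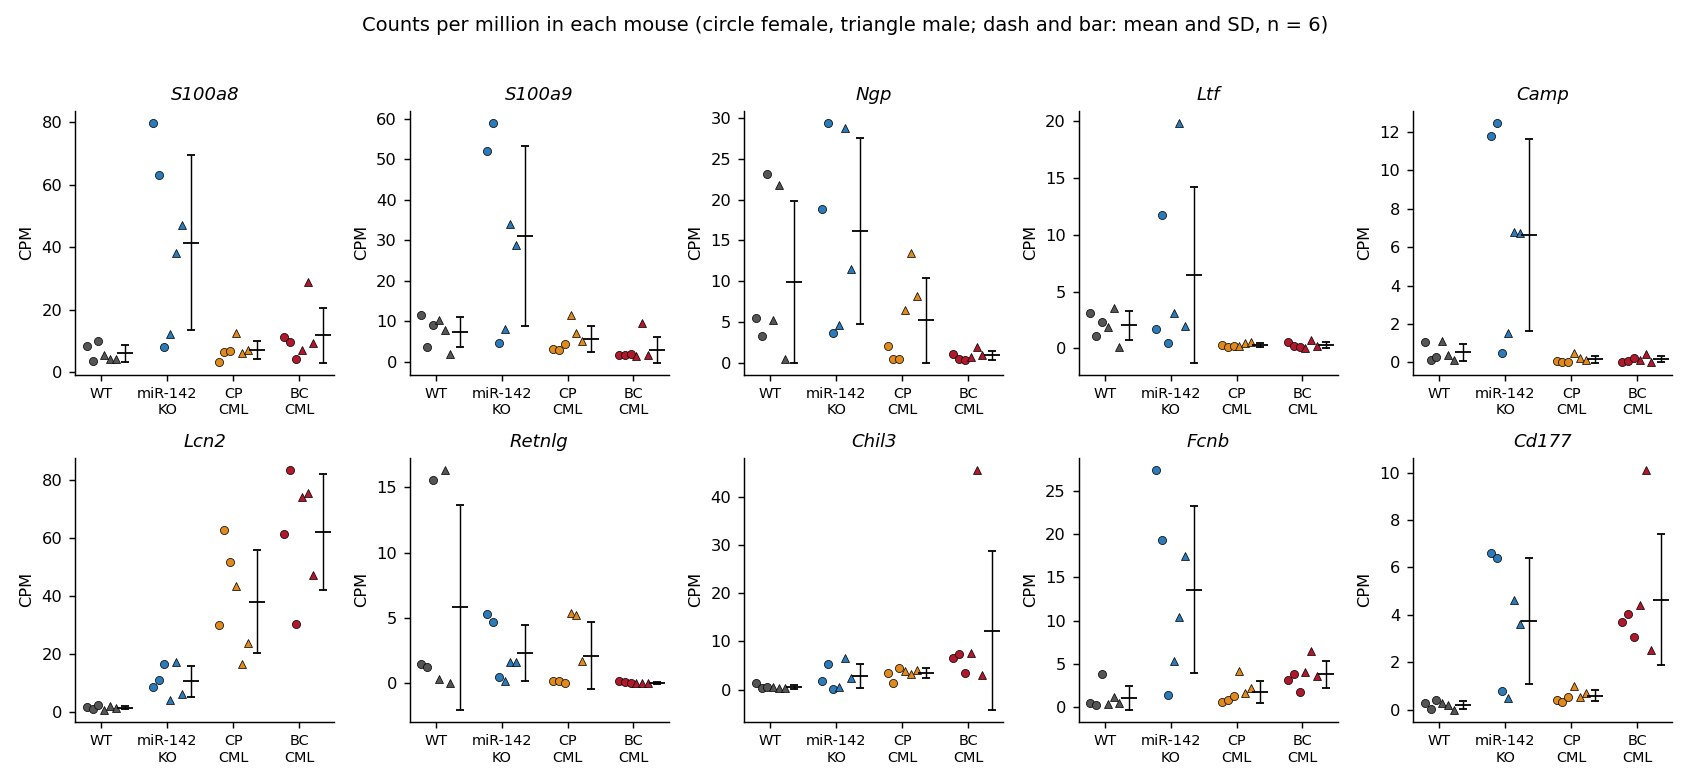
CPM (linear axes that differ between panels) of each of the 10 genes in the 24 mice, by group; circles are females, triangles males, and the dash and bar give the mean and SD of 6 mice. The mean is highest in miR-142 KO LSKs for 6 genes (S100a8, S100a9, Ngp, Ltf, Camp and Fcnb), in BC CML LSKs for Lcn2, Chil3 and Cd177 and in WT LSKs for Retnlg, and 1 BC CML male (replicate 5) stands above its group for Chil3 at 45.6 CPM.

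S100a8 and S100a9 encode the subunits of calprotectin, the calcium and zinc binding heterodimer that fills the neutrophil cytosol. S100a8 ran from 3.51 to 9.86 CPM in WT (median 4.92), from 8.12 to 79.8 in miR-142 KO (median 42.7), from 3.32 to 12.6 in CP CML (median 6.74) and from 4.36 to 29.0 in BC CML (median 9.51). S100a9 ran from 1.92 to 11.5 CPM in WT (median 8.39), from 4.5 to 59.0 in miR-142 KO (median 31.4), from 2.78 to 11.4 in CP CML (median 4.73) and from 1.42 to 9.49 in BC CML (median 1.68). Both were highest in miR-142 KO, where replicates 3 and 4 fell back into the range of the other groups. Neighbouring groups overlapped throughout. In the 5 BC CML mice other than replicate 5, S100a9 stayed at or below 1.98 CPM while S100a8 reached 11.3 CPM, and the counts of S100a8 per count of S100a9 had a median of 5.46 (2.20 to 6.51) in BC CML against 0.858 in WT (0.525 to 2.24), 1.53 among miR-142 KO mice (1.07 to 1.80) and 1.24 (0.898 to 2.37) in CP CML. The subunits of calprotectin were thus counted in different proportion in BC CML, with 1 CP CML mouse (2.37) and 1 WT mouse (2.24) just above the lowest BC CML mouse (2.20).

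Ngp, Ltf and Camp are classical secondary granule genes. Ngp encodes the neutrophilic granule protein, Ltf encodes lactoferrin, the iron-binding protein that defines these granules, and Camp encodes the cathelicidin precursor of an antimicrobial peptide. Ngp ran from 0.503 to 23.1 CPM in WT (median 5.44), from 3.65 to 29.4 in miR-142 KO (median 15.2), from 0.552 to 13.5 in CP CML (median 4.32) and from 0.396 to 2.00 in BC CML (median 0.853). WT replicates 3 and 5, at 23.1 and 21.8 CPM, were far above the other 4 WT mice (at most 5.56 CPM), and the 3 CP CML males were above the 3 CP CML females. Ltf ran from 0.137 to 3.57 CPM in WT (median 2.09), from 0.425 to 19.9 in miR-142 KO (median 2.53), from 0.123 to 0.530 in CP CML (median 0.269) and from 0.0432 to 0.749 in BC CML (median 0.183). Both BCR-ABL groups thus held 1 to 18 Ltf counts per library. Camp ran from 0.137 to 1.14 CPM in WT (median 0.343), from 0.510 to 12.5 in miR-142 KO (median 6.77), from 0.0409 to 0.511 in CP CML (median 0.0970) and from 0.0405 to 0.458 in BC CML (median 0.106). Camp was therefore near the limit of counting in the CML groups, with 1 to 12 counts per library, and had 3 to 25 counts in WT. By mean, miR-142 KO was highest, then WT, then the CML groups for all of Ngp, Ltf and Camp. CP CML lay above BC CML for Ngp (means 5.25 and 0.957 CPM). The CP CML and BC CML means were level for Ltf (0.308 and 0.307 CPM) and Camp (0.169 and 0.167 CPM). Neighbours in the order by mean overlapped for each gene.

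Lcn2 encodes lipocalin 2, which binds bacterial iron-carrying siderophores and is stored in the same granules, and it is also made by many cells under inflammatory signals. Its levels followed another order. Lcn2 ran from 0.681 to 2.27 CPM in WT (median 1.45), from 4.11 to 17.2 in miR-142 KO (median 9.76), from 16.5 to 62.8 in CP CML (median 36.6) and from 30.3 to 83.6 in BC CML (median 67.9). The means were 1.42 ± 0.603, 10.6 ± 5.34, 38.0 ± 17.7 and 62.1 ± 20.1 CPM (SD, n = 6 each). Every miR-142 KO mouse lay above every WT mouse, every CP CML mouse lay above every WT mouse and every BC CML mouse lay above every miR-142 KO mouse, while CP CML and BC CML overlapped. Lcn2 also had the smallest relative spread of the 10 genes in BC CML, with a coefficient of variation of 32.4%.

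Retnlg, Chil3 and Fcnb encode secreted proteins of maturing myeloid cells. Retnlg encodes a resistin-like protein of late neutrophils, Chil3 encodes the chitinase-like protein Ym1 of neutrophils and macrophages, and Fcnb encodes ficolin B, a lectin of the complement pathway. Retnlg ran from 0 to 16.3 CPM in WT (median 1.39), from 0.173 to 5.31 in miR-142 KO (median 1.65), from 0.0460 to 5.40 in CP CML (median 0.942) and from 0 to 0.178 in BC CML (median 0.0216). BC CML held 0, 0, 0, 1, 2 and 4 Retnlg counts. WT replicates 3 and 5 held 370 and 374, the other WT mice 0 to 34. Chil3 ran from 0.231 to 1.30 CPM in WT (median 0.427), from 0.212 to 6.55 in miR-142 KO (median 2.12), from 1.35 to 4.46 in CP CML (median 3.65) and from 3.04 to 45.6 in BC CML (median 6.94). BC CML replicate 5 alone held 1097 of the Chil3 counts of its group, against 71 to 181 in the other 5 mice. Fcnb ran from 0.277 to 3.82 CPM in WT (median 0.468), from 1.40 to 27.4 in miR-142 KO (median 13.9), from 0.553 to 4.13 in CP CML (median 1.47) and from 1.73 to 6.53 in BC CML (median 3.68). Ngp counts per Fcnb count had a median of 11.9 in WT mice (range 1.10 to 19.2), 1.19 in miR-142 KO mice (range 0.661 to 2.77), 2.65 in CP CML mice (range 0.414 to 8.44) and 0.251 in BC CML mice (range 0.129 to 0.371), and no BC CML mouse reached the lowest mouse of any other group.

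Cd177, the only surface protein among the 10, encodes a GPI-anchored receptor of the neutrophil membrane and specific granules that binds PECAM1. It ran from 0 to 0.420 CPM in WT (median 0.245), from 0.476 to 6.59 in miR-142 KO (median 4.14), from 0.327 to 1.02 in CP CML (median 0.543) and from 2.51 to 10.1 in BC CML (median 3.86). All BC CML mice lay above all CP CML mice and all miR-142 KO mice above all WT mice, while miR-142 KO overlapped with both BC CML and CP CML and WT overlapped with CP CML. Replicates 3 and 4 of miR-142 KO, at 0.807 and 0.476 CPM, lay inside the CP CML range. The lowest miR-142 KO mouse (0.476 CPM) was close to the highest WT mouse (0.420 CPM).

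**Figure D2:**
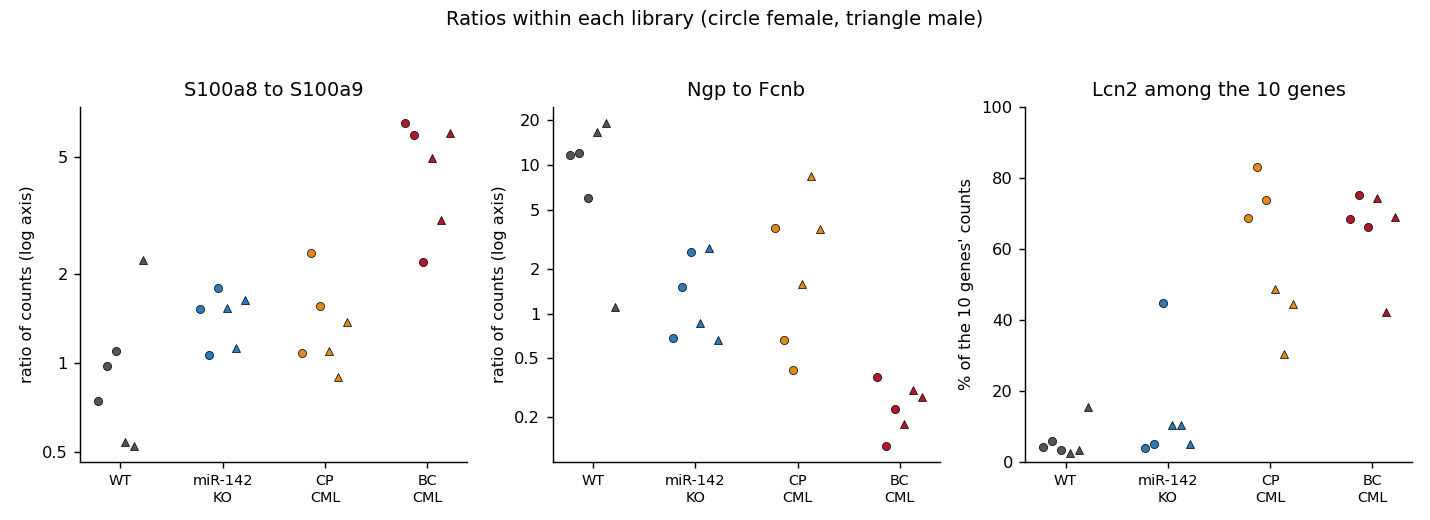
Counts of S100a8 per count of S100a9 and of Ngp per count of Fcnb (log axes), and the share of Lcn2 in the 10 genes' counts in percent (linear axis from 0), 1 point per mouse with circles for females and triangles for males. BC CML mice have S100a8 to S100a9 ratios of 2.20 to 6.51 and the lowest Ngp to Fcnb ratios, 0.129 to 0.371, and Lcn2 makes up 30.3% to 83.0% of the counts in CP CML.

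The differences between groups were fitted with edgeR over all 24 libraries, and a gene is called where the adjusted p of the quasi-likelihood test over 13520 genes is under 0.05. The first question was what loss of miR-142 did without BCR-ABL. In miR-142 KO against WT, 9 of the 10 genes had fitted values above 0, with a median log2 fold change of 2.64 against 0.01 over all genes tested. Cd177 stood highest (log2 fold change 4.17 ± 0.62, SE), followed by Camp at 13.2-fold (3.72 ± 0.65), Fcnb 12.8-fold (3.68 ± 0.65), Lcn2 7.74-fold (2.95 ± 0.42) and S100a8 7.24-fold (2.86 ± 0.49). Chil3, S100a9 and Ltf followed with log2 fold changes of 2.43 ± 0.75, 2.15 ± 0.57 and 1.73 ± 0.66. Ngp (0.75 ± 0.71) and Retnlg (-1.27 ± 0.97) were the exceptions, and both turned on WT replicates 3 and 5. Without those 2 mice, an alternative added after their counts were seen, the log2 fold change was 2.20 for Ngp, then past the threshold, and 1.62 for Retnlg, still not past it. Chil3 was then 2.30 and no longer called. Ltf rested on miR-142 KO replicate 5, with a log2 fold change of 0.97 and no call without it. It also lost its call without WT replicate 2, 3, 4 or 6 or miR-142 KO replicate 2 (1.48 to 1.79). The 8 genes called higher and 0 called lower stand beside backgrounds of 19.9% higher and 16.4% lower over all genes, and the 2 with no overlap (Lcn2 and Cd177) beside 14.3%. Because the genes were chosen with these results known, nothing is read from those counts.

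The second question was what BCR-ABL did where miR-142 was intact. In CP CML against WT the 10 genes split, with a median log2 fold change of -0.00 against -0.02 over all genes. Lcn2 was 27.6-fold higher (4.78 ± 0.42) and Chil3 6.54-fold higher (2.71 ± 0.75), both with no overlap, and Ltf was 6.27-fold lower (-2.65 ± 0.80). S100a8 (0.31 ± 0.49) and S100a9 (-0.32 ± 0.57) differed by less than their standard errors and Fcnb (0.77 ± 0.65) by little more, and Cd177 (1.52 ± 0.68), Camp (-1.50 ± 0.82), Retnlg (-1.40 ± 0.97) and Ngp (-0.87 ± 0.73) lay between. Without WT replicates 3 and 5 the values were 0.58 for Ngp, 1.5 for Retnlg and 2.28 for Fcnb, so the sign of Ngp and Retnlg in this comparison turned on those 2 WT mice, and Fcnb was then called. Fcnb was also called without WT replicate 3 alone (1.81), and Cd177 was called without WT replicate 3 (1.86), miR-142 KO replicate 3 (1.54) or miR-142 KO replicate 4 (1.52), by the likelihood ratio test that the study used (1.53) and by DESeq2 (1.55). The 2 genes called higher and 1 called lower stand beside 22.5% and 22.9% of all genes, and the 2 with no overlap beside 22.1%.

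The third question was what loss of miR-142 did in the presence of BCR-ABL. In BC CML against CP CML the genes went in both directions, with a median log2 fold change of 0.42 against 0.01 over all genes. Cd177 was 8.02-fold higher (3.0 ± 0.55) with no overlap and Chil3 3.74-fold higher (1.90 ± 0.64). Retnlg was 36.8-fold lower (-5.20 ± 1.55) and Ngp 5.18-fold lower (-2.37 ± 0.83). Fcnb (1.14 ± 0.61), S100a8 (0.78 ± 0.47) and Lcn2 (0.77 ± 0.33) were above 0 and S100a9 (-0.87 ± 0.59) below, none of them called, and Ltf (0.07 ± 0.93) and Camp (-0.01 ± 0.92) were too low in both groups for a direction. BC CML replicate 5 decided 2 of these values. Without it Chil3 was 0.78 and no longer called, and S100a9 was -1.71 and then called. Cd177 was 2.61 without it and was called under every alternative run. Ngp lost its call without CP CML replicate 5 (-1.86) or 6 (-2.22) or BC CML replicate 2 (-2.26) or 4 (-2.33), and Lcn2 gained one without CP CML replicate 2 (0.96), BC CML replicate 3 (0.89) or miR-142 KO replicate 4 (0.77). Lcn2 was also called with sex as a covariate (0.82), without miR-142 KO replicates 3 and 4 (0.75) and in males only (1.30). In females only Lcn2 was 0.33 and not called. Fcnb was called with only the 12 libraries compared (1.12). Retnlg rests on 7 counts in all of BC CML. The 2 genes called higher and 2 called lower stand beside 20.4% and 17.6% of all genes, and the single gene with no overlap beside 21.2%.

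Against miR-142 KO, with which it shares the deletion, BC CML had lower levels of most of the 10 genes, with a median log2 fold change of -2.56 against -0.02 over all genes. Retnlg was 40.2-fold lower (-5.33 ± 1.54), Camp 37.4-fold (-5.23 ± 0.75), Ltf 19.7-fold (-4.30 ± 0.79), Ngp 16.0-fold (-4.00 ± 0.85) and S100a9 10.1-fold (-3.34 ± 0.61). Fcnb (-1.78 ± 0.59) and S100a8 (-1.76 ± 0.47) were lower by smaller amounts. Lcn2 was 6.07-fold higher (2.6 ± 0.35), Chil3 4.53-fold higher (2.18 ± 0.65) and Cd177 was close to level (0.36 ± 0.48). Chil3 was 1.06 and not called without BC CML replicate 5, and Fcnb was -1.46 and not called without miR-142 KO replicate 1. The 2 genes called higher and 7 called lower stand beside 20.3% and 19.3% of all genes, and the 3 with no overlap (Ngp, Camp and Lcn2) beside 11.2%. The 4 comparisons share groups, so their values are given side by side and are not independent of each other.

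**Figure D3:**
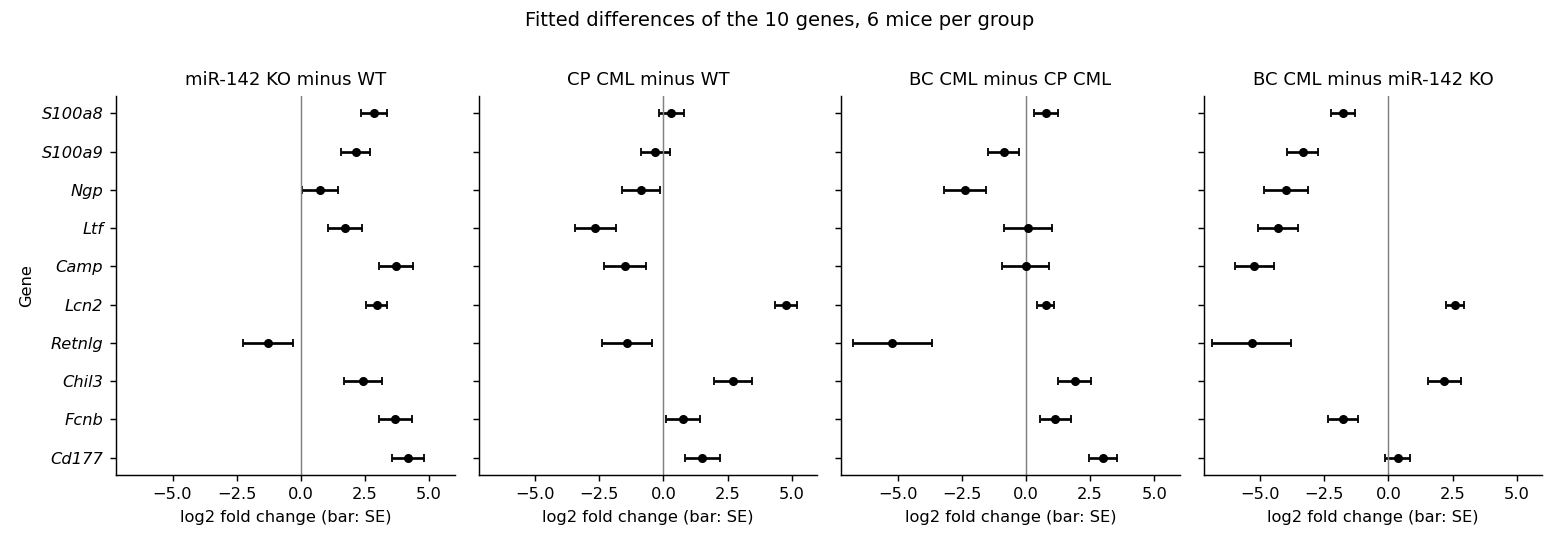
Fitted log2 fold change of each of the 10 genes in the 4 comparisons, with bars of 1 SE, from 6 mice per group. In miR-142 KO minus WT 9 of 10 points lie above 0, in BC CML minus CP CML they run from -5.20 (Retnlg) to 3.0 (Cd177), and in BC CML minus miR-142 KO only Lcn2, Chil3 and Cd177 lie above 0.

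Setting the effect of miR-142 loss with BCR-ABL against that without it, the difference of log2 fold changes was below 0 for all 10 genes. It was largest for Retnlg (-3.93 ± 1.92), Camp (-3.72 ± 1.19), Ngp (-3.13 ± 1.09) and S100a9 (-3.01 ± 0.82), intermediate for Fcnb (-2.54 ± 0.88), Lcn2 (-2.18 ± 0.53), S100a8 (-2.07 ± 0.67) and Ltf (-1.66 ± 1.15), and smallest for Cd177 (-1.17 ± 0.83) and Chil3 (-0.53 ± 0.96). The comparisons on the 2 sides share no mice, and these differences are a description, since the genes were chosen on them. The tested primary granule genes were below 0 as well, from -0.22 ± 0.17 (Cd63) to -1.46 ± 0.40 (Ms4a3). A difference below 0 is thus not particular to the 10 genes, and its share over all genes is not given here.

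The spread between mice was large and shared by many of the genes. Within miR-142 KO, replicates 3 and 4 were among the lowest 2 mice for 9 of the 10 genes each, at summed levels of 36.5 and 40.2 CPM against 128 to 222 CPM in the other 4 mice. The exception for replicate 3 was Lcn2, at 16.4 CPM the second highest of its group, so that Lcn2 made up 44.9% of its summed counts against 4.01% to 10.2% in the others. Within BC CML, replicate 5 was the highest for 8 of the 10 genes, all but Lcn2 and Retnlg. Within CP CML, replicate 4 was the highest for 6, and within WT, replicate 3 was the highest for 5 while replicate 6 was the lowest for 6. Highest to lowest, the range within a group was widest for Retnlg in CP CML, at 117-fold, and narrowest for Lcn2 in BC CML, at 2.76-fold, among groups with no mouse at 0.

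**Figure D4:**
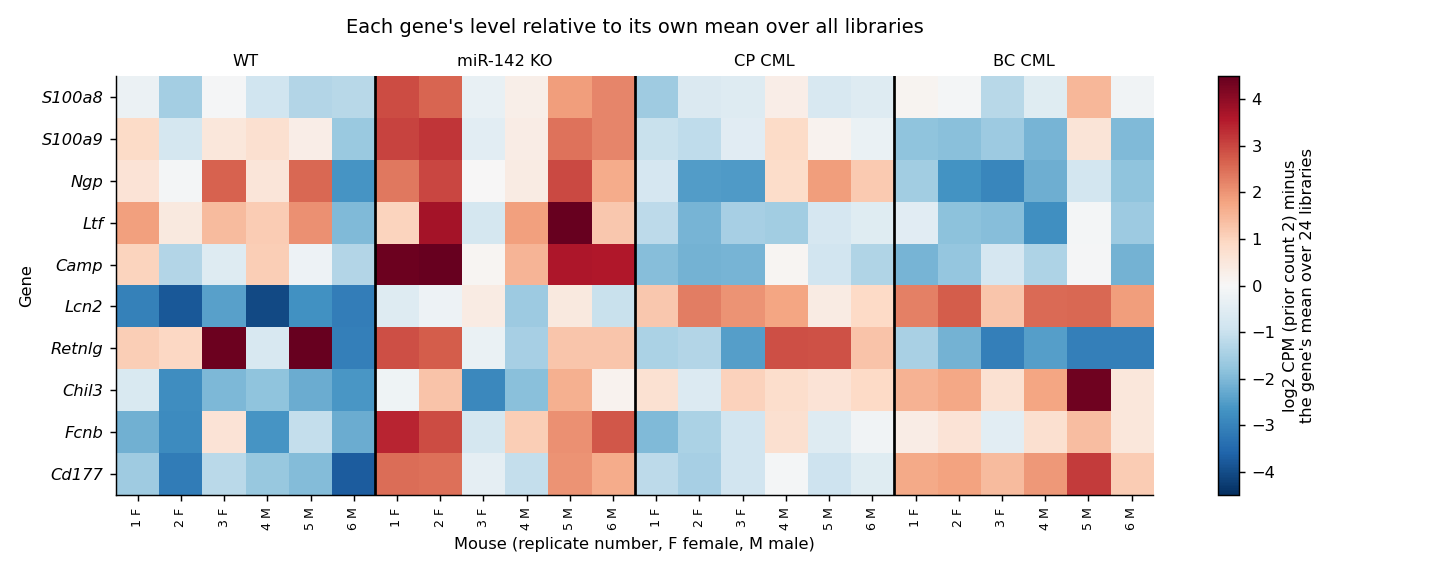
Log2 CPM (prior count 2) of each gene minus its mean over the 24 libraries, red above and blue below, with mice in columns by group, replicate number and sex (F, M). The rows for Ngp and Retnlg are red in WT replicates 3 and 5 and in the 3 CP CML males, most rows are red in miR-142 KO replicates 1, 2, 5 and 6, and the Lcn2 row is blue in WT and red in both CML groups.

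Some marker sums of other cell types stood out in some of these mice and others did not, and their part in the levels was not tested. WT replicate 3 had the highest summed macrophage (1275 CPM), monocyte (1241 CPM) and eosinophil (1898 CPM) markers of its group, against 69.7 to 244, 238 to 612 and 64.4 to 1209 CPM in the other 5 mice, and replicate 5 had the 1209 CPM of eosinophil markers. For macrophage (116 CPM) and monocyte (533 CPM) markers, WT replicate 5 lay inside the range of the other WT mice. In miR-142 KO, monocyte markers were 388 and 409 CPM in replicates 3 and 4 against 799 to 1301 in the other 4, and the eosinophil markers were 270 to 331 CPM in replicates 3, 4 and 5 against 1553 to 1890 in replicates 1, 2 and 6. BC CML replicate 5 had the highest macrophage sum of its group, 231 CPM against 54.6 to 162. Its monocyte (1451 CPM) and eosinophil (144 CPM) sums lay inside the range of the other BC CML mice. No gene of the monocyte, macrophage or eosinophil lists was at 0 throughout a group.

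The marker lists were also counted by comparison. Over all genes, 20.4% were called higher and 17.6% lower in BC CML against CP CML, and 19.9% and 16.4% in miR-142 KO against WT. The shares were 22.5% and 22.9% in CP CML against WT, and 20.3% and 19.3% in BC CML against miR-142 KO. Nothing is read from list counts near these shares, such as those of the monocyte, B cell and T or NK cell lists in BC CML against CP CML. In BC CML against CP CML the eosinophil list had 7 of 8 genes called lower and 0 higher, the macrophage list 3 of 10 lower and 0 higher, and the mast cell or basophil list 5 of 8 higher and 0 lower. The monocyte list had 1 of 10 higher and 1 lower, the B cell list 2 of 8 tested lower, the T or NK cell list 1 of 5 tested higher and 1 lower, and the erythroid list 2 of 6 tested lower. The mature neutrophil surface list had 4 of 7 tested genes higher and 0 lower, while Ly6g was too low to test. The LSK gate list had 1 of 9 higher (Ly6a) and 5 lower (Kit, Flt3, Hlf, Procr and Slamf1). Summed eosinophil markers were 62.2 to 246 CPM in BC CML against 344 to 1536 in CP CML, and summed mast cell or basophil markers 4812 to 9834 against 1779 to 3381. In miR-142 KO against WT the macrophage list had 8 of 10 genes lower and 0 higher, the mast cell or basophil list 6 of 8 higher and 0 lower, the B cell list 1 of 8 lower and the T or NK cell list 2 of 5 higher and 1 lower. Summed B cell markers were 25.9 to 46.4 CPM in miR-142 KO against 72.4 to 982 in WT, and summed T or NK cell markers 111 to 128 against 59.8 to 102. In CP CML against WT the monocyte list had 6 of 10 higher, the mast cell or basophil list 6 of 8 higher and the erythroid list 5 of 6 lower. In BC CML against miR-142 KO the eosinophil list had 7 of 8 lower and the mast cell or basophil list 5 of 8 higher, with sums that did not overlap (eosinophil 62.2 to 246 against 270 to 1890 CPM, mast cell or basophil 4812 to 9834 against 437 to 2999 CPM). Whether any of these shifts bears on the levels of the 10 genes was not tested.

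Sex was not used in choosing the genes, so it could be tested. Over the 4 groups, 0 of the 10 genes differed between females and males in edgeR's quasi-likelihood test, beside 0.651% of all genes, with 0 at an unadjusted p under 0.05 and 0 called by DESeq2. Log2 differences (female minus male) lay between -0.69 for Ngp (± 0.56, adjusted p = 0.544) and 0.33 for Lcn2 (± 0.25, adjusted p = 0.511). Within CP CML, a comparison added after the levels were seen, 9 of the 10 genes were higher in males and 5 (S100a9, Ngp, Camp, Retnlg and Fcnb) did not overlap between the sexes, beside 22.9% of all genes with no overlap. Ngp was 2.09, 0.572 and 0.552 CPM in the 3 females and 6.55, 13.5 and 8.22 CPM in the 3 males. Retnlg was 0.184, 0.204 and 0.0460 CPM in the females and 5.40, 5.25 and 1.68 CPM in the males. The quasi-likelihood test called 0 of the 10, beside 0.0962% of all genes called, with 2 at an unadjusted p under 0.05 and 0 called by DESeq2. These were Ngp (log2 difference, female minus male, -3.20 ± 1.08, adjusted p = 0.240 in edgeR) and Retnlg (-4.77 ± 1.67, adjusted p = 0.255 in edgeR). The CP CML males also had summed macrophage markers of 440 to 575 CPM against 82.8 to 113 CPM in the females, and the part of that in the difference was not tested. In BC CML 9 of the 10 genes had a higher mean in males, with overlap in all 10 and 0 at an unadjusted p under 0.05 in edgeR. Replicate 5, a male, was the highest BC CML mouse for 8 of the 10 genes and weighs on those means. The count of genes higher in males therefore leans on that mouse and is not read as a repeat of the CP CML pattern. WT and miR-142 KO had 1 and 2 genes higher in males. Whether the sex difference itself differed between groups was not tested.

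Split by sex, the lower level of Ngp and Retnlg in BC CML than in CP CML was larger in the males, a difference that was not tested. Among females only, the log2 fold change of BC CML against CP CML was -0.52 for Ngp and -0.62 for Retnlg, with neither called, and among males only it was -2.86 and -7.68, with both called. Cd177 was 3.09 in females and 2.96 in males, called in both.

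The lists that follow were also drawn up with earlier results of these libraries known, so their counts and adjusted p-values are not independent evidence. The background of all their counts is the share of all genes called in the same comparison. It was 19.9% higher and 16.4% lower in miR-142 KO against WT, and 22.5% and 22.9% in CP CML against WT. It was 20.4% and 17.6% in BC CML against CP CML, and 20.3% and 19.3% in BC CML against miR-142 KO. Genes of the primary granules, which are made before the secondary granules, gave a more uniform picture. Of the 7 tested (8 in the table), all 7 rose in miR-142 KO against WT and all 7 rose in CP CML against WT, with median log2 fold changes of 1.40 and 1.38. In CP CML against WT the protease genes Prtn3 (1.5 ± 0.21, adjusted p = 1.10e-05, edgeR quasi-likelihood test) and Ctsg (1.97 ± 0.26, adjusted p = 3.64e-06) and the granulocyte-monocyte progenitor gene Ms4a3 (2.58 ± 0.30, adjusted p = 7.56e-07) rose in CPM with no overlap. In BC CML against CP CML 4 rose, namely Elane (1.17 ± 0.36, adjusted p = 0.0127), Ctsg (0.96 ± 0.25, adjusted p = 0.00397), Cd63 (0.94 ± 0.12, adjusted p = 3.01e-06) and Prtn3 (0.64 ± 0.21, adjusted p = 0.0196), and 0 fell. Against miR-142 KO, BC CML had 4 higher and 0 lower, where the classical secondary granule genes Ngp, Ltf and Camp were 16.0- to 37.4-fold lower. The lists differ in level as well, since the primary granule genes summed to 1368 to 8295 CPM per library against 9.14 to 222 CPM for the 10 genes.

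A list of 41 other specific granule and late neutrophil genes, 29 of them tested, was set beside the 10. In miR-142 KO against WT 12 rose and 1 fell, with a median log2 fold change of 0.49, in CP CML against WT 19 rose and 2 fell (median 0.64), in BC CML against CP CML 9 rose and 4 fell (median 0.21), and in BC CML against miR-142 KO 11 rose and 3 fell (median 0.36). In CP CML against WT the largest changes by p-value were in Hp, the hemoglobin scavenger haptoglobin (3.42 ± 0.34, adjusted p = 1.14e-07), Trem3 (3.02 ± 0.31, adjusted p = 1.67e-07) and Trem1 (2.83 ± 0.30, adjusted p = 2.02e-07), activating receptors of myeloid cells, Slpi, a protease inhibitor (3.50 ± 0.39, adjusted p = 3.87e-07), and Mmp8, the neutrophil collagenase (3.74 ± 0.49, adjusted p = 3.60e-06). Like Lcn2, Hp climbed from WT (13.4 ± 10.6 CPM) through miR-142 KO (78.9 ± 22.9) and CP CML (138 ± 30.4) to BC CML (227 ± 35.1, SD, n = 6 each). Slpi and Mmp8 did not go on rising, since Slpi was at 97.0 ± 30.9 CPM in CP CML and 91.9 ± 30.2 in BC CML, and Mmp8 fell from 8.44 ± 1.62 to 3.34 ± 1.41 CPM (-1.28 ± 0.42, adjusted p = 0.0198).

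From CP CML to BC CML, Cxcr2, the chemokine receptor that draws mature neutrophils from the marrow, rose 2.46-fold (1.30 ± 0.17, adjusted p = 3.34e-06), and Lyz2 (lysozyme, 0.84 ± 0.13, adjusted p = 3.56e-05), Padi4 (0.53 ± 0.11, adjusted p = 4.23e-04), Csf3r (the G-CSF receptor, 0.49 ± 0.09, adjusted p = 2.43e-04) and Alox5ap (0.33 ± 0.06, adjusted p = 1.05e-04) rose as well. Besides Mmp8, the genes that fell were Ifitm6, Anxa1 and Clec4d, named after their values were seen because there were so few. Within each sex alone the numbers called in BC CML against CP CML were smaller, 5 in females and 7 in males, from 3 mice per group.

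Among 12 transcription factors of granulopoiesis, 8 rose and 0 fell in miR-142 KO against WT. Cebpe, the factor of the secondary granule programme, was among them at 15.9 ± 5.30 CPM against 6.04 ± 4.44 (SD, n = 6 each), a log2 difference of 1.45 ± 0.35 (adjusted p = 0.00230, edgeR), as were Cebpd (1.08 ± 0.19, adjusted p = 9.43e-05), Cebpa (0.74 ± 0.15, adjusted p = 3.58e-04), Gfi1 (0.56 ± 0.13, adjusted p = 0.00163) and Spi1 (0.38 ± 0.07, adjusted p = 1.19e-04). In CP CML against WT, Cebpe was level (0.12 ± 0.35, adjusted p = 0.802) while Cebpa (0.66 ± 0.15, adjusted p = 9.56e-04), Cebpb (0.84 ± 0.17, adjusted p = 3.49e-04), Cebpd (1.19 ± 0.19, adjusted p = 3.47e-05) and Spi1 (0.46 ± 0.07, adjusted p = 1.41e-05) rose, for 6 that rose and 1 (Gfi1b, -1.10 ± 0.23, adjusted p = 5.94e-04) that fell. In BC CML against CP CML, Gfi1 (0.62 ± 0.13, adjusted p = 6.05e-04), Cebpd (0.49 ± 0.18, adjusted p = 0.0353), Spi1 (0.22 ± 0.07, adjusted p = 0.0130) and Myb (0.24 ± 0.07, adjusted p = 0.00505) rose, 0 fell and Cebpe was 0.75 ± 0.35 (adjusted p = 0.0911). Without CP CML replicate 6 or BC CML replicate 2, 2 of the 12 were called in that comparison, and among females only 0 were. In BC CML against miR-142 KO 4 rose and 1 fell, and Cebpe was -0.58 ± 0.34 (adjusted p = 0.183). Levels of Cebpe in BC CML were 10.2 ± 2.29 CPM, above the CP CML mean of 6.36 ± 1.43 CPM by an amount that did not pass the threshold.

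**Figure D5:**
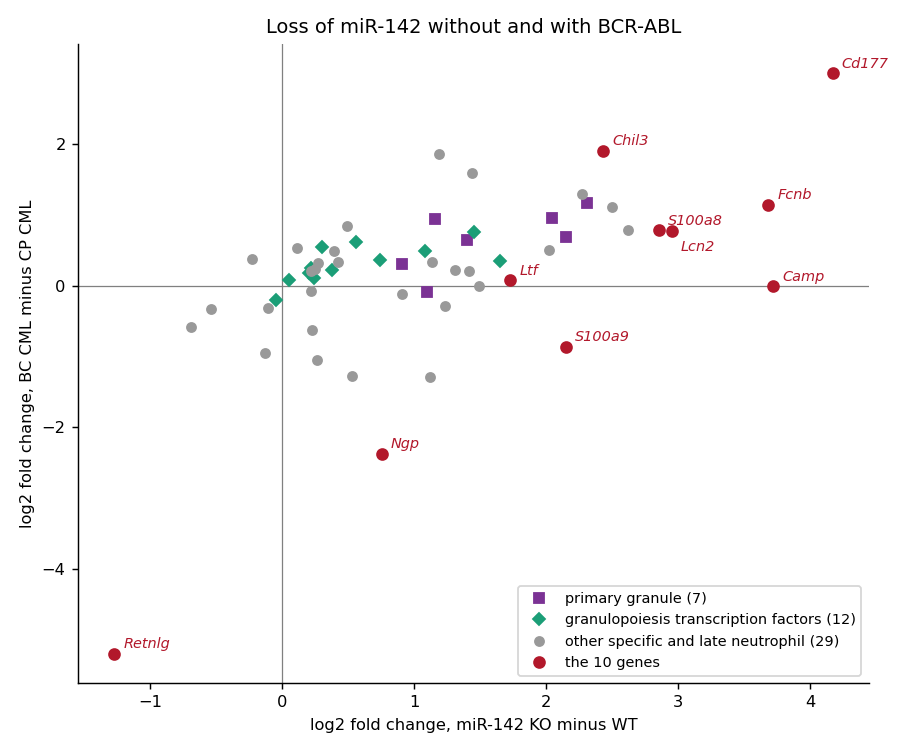
Log2 fold change of miR-142 KO minus WT (horizontal) against BC CML minus CP CML (vertical) for the 10 genes (red, named), 7 primary granule genes, 12 transcription factors and 29 other specific and late neutrophil genes; Retnlg stands at -1.27 and -5.20 and Cd177 at 4.17 and 3.0. The red points lie farther out than most of the other lists, and 4 of the 10 lie below 0 on the vertical axis.

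A list of receptors and partners was also measured, with 15 of its 19 genes at a level that could be tested. Besides receptors and partners of the encoded proteins it holds other receptors, such as Csf3r (the G-CSF receptor) and Cxcr2 (a chemokine receptor). The counts that follow cover the whole list and are not specific to the encoded proteins. In miR-142 KO against WT 5 rose and 3 fell, in CP CML against WT 6 rose and 2 fell, in BC CML against CP CML 5 rose and 2 fell, and in BC CML against miR-142 KO 5 rose and 1 fell. For the calprotectin receptors, Tlr4 fell with miR-142 loss without BCR-ABL (-0.50 ± 0.13, adjusted p = 0.00478 in edgeR). Ager (RAGE) fell in BC CML against CP CML (-0.49 ± 0.16, adjusted p = 0.0187). Cd36 fell in both comparisons of miR-142 loss (-1.55 ± 0.54, adjusted p = 0.0274, without BCR-ABL and -2.08 ± 0.66, adjusted p = 0.0152, with it). It was also lower in CP CML against WT (-1.56 ± 0.54, adjusted p = 0.0226) and in BC CML against miR-142 KO (-2.08 ± 0.66, adjusted p = 0.0149). The fall of Cd36 was thus not particular to miR-142 loss, and BC CML held 33 Cd36 counts in all, with 2 mice at 0. Bsg (basigin), a receptor reported for S100a9, rose in both comparisons of miR-142 loss (0.49 ± 0.06, adjusted p = 7.57e-07, and 0.58 ± 0.06, adjusted p = 6.69e-08). Of the genes listed as partners of CD177, Pecam1 went the same way, at 0.42 ± 0.07 (adjusted p = 3.73e-05) and 0.31 ± 0.07 (adjusted p = 7.47e-04). So did Prtn3, as given above, a protease listed because CD177 is reported to hold it at the surface of human neutrophils. The lipocalin 2 receptor gene Slc22a17 was lower in CP CML than in WT (-0.53 ± 0.19, adjusted p = 0.0234), where Lcn2 itself was 27.6-fold higher. Emb, Il6ra, Cxcr4 and Lrp1 rose in CP CML against WT by 0.57 ± 0.10, 0.46 ± 0.13, 0.41 ± 0.13 and 0.90 ± 0.32 (adjusted p = 1.56e-04, 0.00603, 0.0143 and 0.0234). Tfrc and Mcam passed in no comparison. Csf3r, Cxcr2 and Prtn3 stand in more than 1 of these lists.

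Outside the lists, genes whose levels ran most like the mean of the 10 were ranked by correlation of log2 CPM over the 24 libraries, among the 12259 genes averaging 1 CPM or more. Mogat2 was the most alike (Pearson r = 0.82), and among the next were Chpt1 (0.78), Pxylp1 (0.77), Ncam1 (0.77), Mocs1 (0.76), Ceacam1 (0.75), Arhgap45 (0.74), Arsb (0.74) and Sept5 (0.73). With each group's mean taken off, among the most alike were Glis3 (0.82), Mgst1 (0.81), Mogat2 (0.79), Rnase4 (0.78), Prkcd (0.77), Adgre4 (0.76), Sat1 (0.76), Ang (0.75) and Cyth4 (0.75). Mogat2 stands in both. Mogat2 averaged 0.685 CPM in WT, 4.07 CPM in miR-142 KO, 0.671 CPM in CP CML mice and 2.05 CPM in BC CML mice, and among miR-142 KO mice it was lowest in replicate 3 (0.680 CPM) and highest in replicate 1 (8.14 CPM). These correlations are a description over libraries that share group, depth and sort, the first kind also holds the differences between groups, and a prior count of 0.5 in place of 2 left 9 and 10 of the 10 highest ranked genes in place.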

How the data were processed

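LSKs from 24 mice were profiled by bulk RNA-seq, with 1 library per mouse and 6 per group. The authors deposited raw read counts per gene for 24091 genes, with gene length in kilobases beside them. Per the methods and the submitters' processing notes, RNA was extracted with the miRNeasy Micro Kit, libraries were made with the Kapa mRNA HyperPrep kit, Trimmomatic and FASTP trimmed the reads, STAR 2.6.0 mapped them to mm10 and HTSeq 0.11.1 counted them. The annotation and the strand setting are not given in the sources used here, so reads of overlapping antisense genes cannot be told apart. All 24 labelled libraries were used, more per group than the methods state.

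CPM is counts over the library total. RPKM also divides by the deposited length. Counts were fitted in edgeR 4.0.16 (R 4.3.3) with TMM factors and filterByExpr by group, in a single quasi-likelihood model of the 24 libraries, adjusted by Benjamini-Hochberg over 13520 genes and called at an adjusted p under 0.05. The study's methods used the likelihood ratio test, which is an alternative here. Sex was fitted as a term beside group, and within groups in a fit of group by sex means. With totals of 16267965 to 24687077, 3 counts were worth 0.122 to 0.184 CPM. No pair of mice in a group agreed within sampling noise (chi-square per degree of freedom 5.82 or more). The fit was tested on simulated data with known changes, and the outcome is not given here, so nothing is read from it.

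The 10 genes and all lists were chosen with earlier results of these data known. The lists were primary granule, other specific and late neutrophil, granulopoiesis transcription factors, receptors and partners, and markers of monocyte, macrophage, B cell, T or NK cell, erythroid, eosinophil, mast cell or basophil, mature neutrophil surface and LSK gate. Named were the 10 genes, from each list up to 5 genes with the smallest p in BC CML against CP CML and in CP CML against WT among those called, any measured gene of the transcription factor and receptor lists, and the 10 genes most like the members by each of 2 measures, except for items that are not reported here. Promoters are from RefSeq, GRCm38.p6, and matched all 10 genes. Alternatives were the likelihood ratio test, DESeq2 1.42.0, RLE and upper quartile scaling, no filter and at least 1 CPM in 6 libraries, sex as a covariate, only the 12 libraries compared, each mouse left out, other totals for CPM and another prior count. Added after the data were seen were WT replicates 3 and 5 left out, miR-142 KO replicates 3 and 4 left out, and each sex alone.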

Additional observations from a re-analysis of the deposited data

Results flagged for a closer look

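In 6 of 40 sets (each of the 10 genes in each group of 6 mice), 1 mouse stood apart from the other 5 by Dixon's criterion at the 95% level. Chance meets that criterion in about 1 in 20 sets where values are normally distributed and sets independent. Here the genes share the same mice and the CPM of several are skewed, so the number of sets is not compared with that rate. Of the 6 sets, 4 were BC CML replicate 5, a male. It had 29.0 CPM of S100a8 against 4.36 to 11.3 in the other 5 mice and 9.49 CPM of S100a9 against 1.42 to 1.98. It also had 45.6 CPM of Chil3 against 3.04 to 7.55, and 10.1 CPM of Cd177 against 2.51 to 4.4. WT replicate 1, a female, had 1.30 CPM of Chil3 against 0.231 to 0.545, which is 30 counts against 5 to 12. WT replicate 3 had 3.82 CPM of Fcnb against 0.277 to 1.13.

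The effect of miR-142 loss differed with BCR-ABL for 6 of 60 other genes tested (10 genes excluded). These came from the primary granule, other neutrophil, transcription factor and receptor lists. The test was of the difference of log2 fold changes (edgeR, BC CML minus CP CML less miR-142 KO minus WT, called for 3.99% of all genes). Marker lists were left out of this count, though some of their genes also passed, such as Car1, Gata2, Epx and Cx3cr1 (adjusted p = 0.0153, 0.0282, 0.0316 and 0.0338). These lists were chosen with earlier results of the same libraries known, so the tests are not independent evidence. The difference was -0.97 for Cxcr2 (adjusted p = 0.0242), -1.84 for Hp (adjusted p = 0.0206), -1.46 for Ms4a3 (adjusted p = 0.0378), -1.10 for Pglyrp1 (adjusted p = 0.0395), -1.52 for Trem3 (adjusted p = 0.0357) and 0.69 for Tlr4 (adjusted p = 0.0364). Hp rose in both settings, by 2.62 without BCR-ABL and 0.78 with it. Tlr4 was -0.50 without BCR-ABL and 0.19 with it.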

How the results depend on the processing

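No paired analysis was possible because the replicate numbers were given in accession order and mark no shared litter or batch. For the 10 genes, no called fold change reversed under any alternative. The numbers of the 10 genes called by comparison were within 1.5 times the reported count under the alternatives that were not added after the data were seen, except that CP CML against WT without WT replicate 3 called 5 instead of 3. Over all mice left out in turn, 3 to 5 genes were called in BC CML against CP CML, 7 to 8 in miR-142 KO against WT, 3 to 5 in CP CML against WT, 8 to 9 in BC CML against miR-142 KO and 0 by sex. The other neutrophil list had 9 to 14, 11 to 18, 19 to 22 and 11 to 15 called in the same order. Of the alternatives added later, females only called 1 of the 10 genes in BC CML against CP CML, and 5 (BC CML against CP CML), 7 (miR-142 KO against WT) and 3 (BC CML against miR-142 KO) of the other list. Males only called 5 of the 10 in miR-142 KO against WT and 7 of the other list in BC CML against CP CML. These fits hold 3 mice per group. Ltf in miR-142 KO against WT lost its call under 6 of 12 settings and 6 of 24 left-out mice. Only the 12 libraries compared called 7 of 12 transcription factors in BC CML against CP CML, against 4. Ltf and Camp in both CML groups and Retnlg in BC CML rest on a few counts per library. The other totals for CPM moved no level by more than 1 SD.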
